A study of Homo sapiens with 8 samples.

Results

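Homologous recombination and Fanconi anemia (FA) genes were examined after SF153 treatment of NKM-1, a human cell line established from a myeloid leukemia. They were taken as a list of 35 gene symbols covering interstrand crosslink repair, recombination and the checkpoint kinases that work beside them. All 35 had a row among the 17912 genes of the files, and all 35 passed the filter used for testing, a mean of at least 1 over the 8 libraries. Wildtype NKM-1 cells received either SF153 at 30 uM or the solvent DMSO, each for 48 h, and 4 libraries of ribosome-depleted, strand-specific total RNA were sequenced per treatment. By the series title, the compound inhibits splicing factors that carry a UHM domain. Each treatment has 2 libraries in batch 1 (numbered 1.1 and 1.2) and 2 in batch 2 (2.1 and 2.2), and no label says that the libraries of 1 batch came from separate cultures. The p-values therefore measure only how these libraries of a single cell line scatter, and that scatter may be technical.

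Homologous recombination copies the sister chromatid to mend a double-strand break. The broken ends are sensed and cut back, BRCA1 and BRCA2 with their partners prepare the single strand for strand exchange, and helicases resolve the joined molecules. The FA core complex is a ubiquitin ligase that, with the E2 enzyme UBE2T, marks FANCD2 and FANCI at a crosslink and so starts its removal. The kinases ATM and ATR signal the damage, ATR through CHEK1 and ATM through CHEK2. Many of these genes are transcribed mainly in S phase, under E2F factors.

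The myeloid label was checked on 11 markers. All 11 had rows, and their summed signal ran from 1172 to 1471 in SF153 and from 1709 to 1861 in DMSO. Of the 11, 6 were called lower and 2 higher, CD33 (0.40) and ITGAM (0.42). The most abundant, MPO, had 470 ± 57.3 in SF153 and 740.3 ± 22.4 in DMSO (log2 difference -0.66, which turned to 0.41 after quantile normalization). Of 19 markers of other lineages, 14 were not analysed here. The summed signal of the B cell genes CD79A and CD79B was 18.3 to 45.1 in SF153 and 75.9 to 86.0 in DMSO, and that of CD2 and NKG7 was 49.6 to 104.6 in SF153 and 94.9 to 125.4 in DMSO. PECAM1 ran from 15.7 to 24.2 in SF153 and from 9.52 to 17.8 in DMSO. The part of these markers in the results was not tested. The share of mitochondrially encoded genes was 16.8% in SF153 2.1 and in SF153 2.2, and 9.17% to 9.92% in the other 6 libraries. The column sums of SF153 2.1 and 2.2 were 828381 and 835840, those of the others 990815 to 1027119. The small nuclear RNA gene RN7SK held 18.7% and 18.2% in SF153 1.1 and 1.2 and 11.4% to 13.9% elsewhere. The unit was taken as a signal of TPM type, which would be scaled by transcript length, but this was not tested. The read depth behind it is unknown.

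By the authors' values, SF153 libraries had less signal of UBE2T, CHEK1, NBN and other genes of these pathways, and more of ATM. Of the 35 genes, 19 fell and 1 rose by limma at an adjusted p below 0.05. Over all 15542 genes tested the share called lower was 24.3% and the share called higher was 13%, so 54.3% of the list was lower where the whole table had 24.3%. The median log2 difference of the 35 genes was -0.43, beside -0.03 for all genes tested. In 14 genes every SF153 library lay below every DMSO library, and in 1, ATM, every SF153 library lay above. The same was true of 23.6% and 13.2% of all genes. The summed signal of the 35 genes was 979 to 1192 in SF153 and 1289 to 1340 in DMSO, and the groups did not overlap. Taken per 1000000 of each library's column sum, it was 957, 1007, 1439 and 1367 in SF153, against 1301, 1345, 1281 and 1268 in DMSO, so that only the batch 1 libraries of SF153 were below DMSO. In bulk RNA, fewer cells in the phase that expresses a gene and less RNA of that gene per cell cannot be told apart.

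The count of lower genes depended on how the libraries were scaled to each other. It was 19 with the authors' values, 14 after median-of-ratios scaling, 9 after quantile normalization and 6 when mitochondrial and small RNA genes were taken out and each library was rescaled. The shares of all genes called lower under those 3 scalings were 20.9%, 18.2% and 13.8%, and the shares called higher were 17%, 20.8% and 35%. Rescaling each library to the same sum, an alternative chosen after seeing the data, gave 9 lower and 1 higher, beside 17.7% and 15.9% of all genes. With both SF153 libraries of batch 2 left out, also chosen after seeing the data, 21 were lower and 1 was higher, beside 18.5% and 7.3%. Removing mitochondrial and small RNA genes moved the median of all genes up by 0.30 on the log2 scale, and 6 of 35 genes (17.1%) is then close to the background of 13.8%. The median of the 35 genes minus that of all genes was -0.39 with the authors' values and -0.38, -0.39 and -0.35 under the 3 other scalings, a quantity in which a factor common to all genes of a library largely cancels. UBE2T, CHEK1, FANCB, RBBP8, NBN and RAD51C were lower under all 4 of these and after rescaling to the same sum, which ended the calls of FANCC, FANCD2, FANCI, BRCA1, BARD1, BRCA2, BRIP1, XRCC2, RAD54L and TOPBP1.

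**Figure D1:**
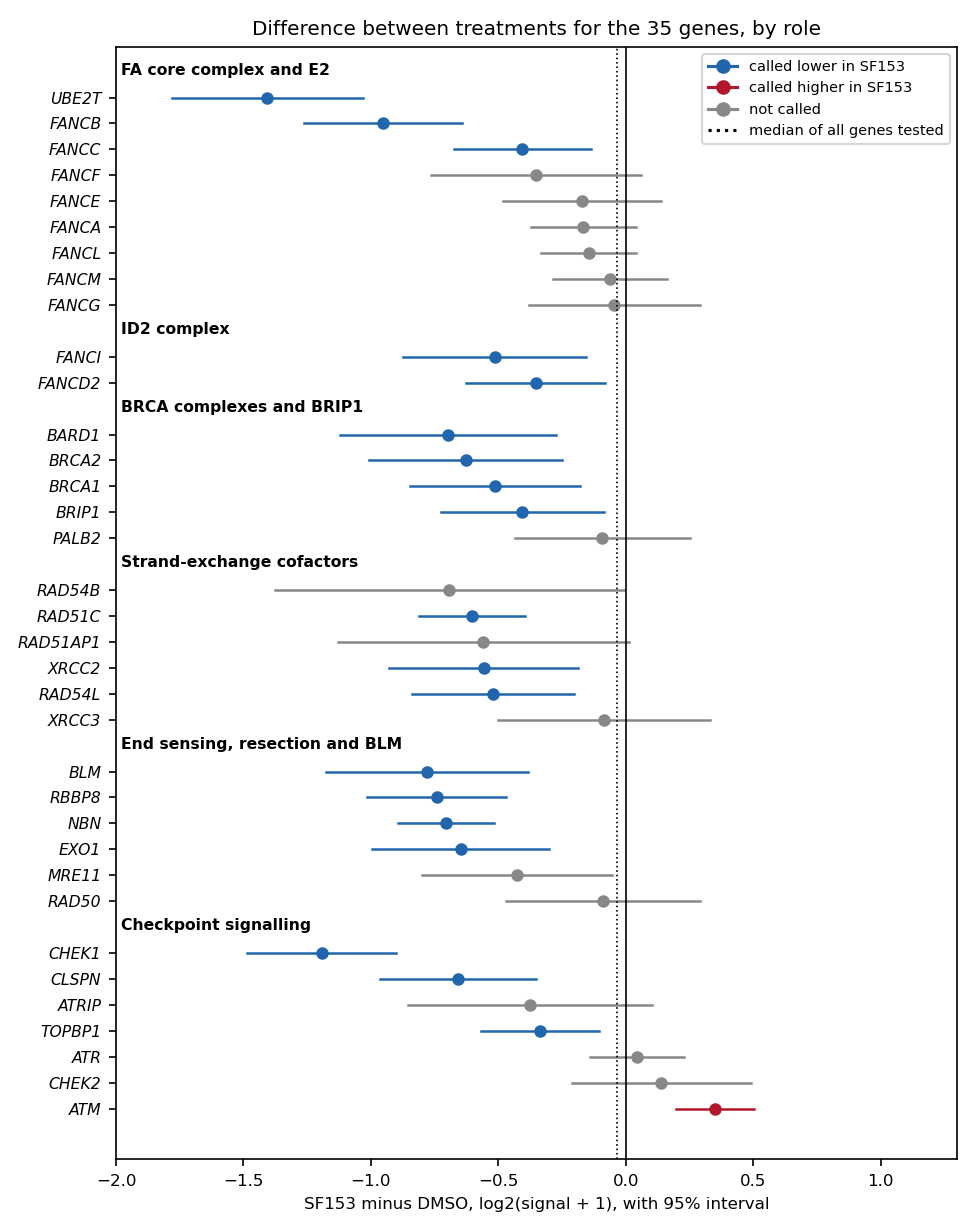
Each point is 1 gene's difference between 4 SF153 and 4 DMSO libraries on the log2(signal + 1) scale, with its 95% interval from limma, grouped by role. UBE2T (-1.41) and CHEK1 (-1.19) lie farthest to the left, and ATM (0.35) is the gene called higher. In the group of the core complex and its E2 enzyme, 6 of 9 genes have grey points.

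The sequences around the transcription starts are shown for some of these genes, with matches to the searched words in capitals. A RefSeq promoter on GRCh38.p14, running from 250 bases before to 50 bases after 1 start of the gene, was found for 32 of the 35 genes; FANCI, RAD54B and NBN are without one. Each was searched on both strands for E2F words (TTTCGCGC, TTTGGCGC, TTCCCGCC, TTCGCGCC or TTGGCGCC), for the cell cycle genes homology region word TTTGAA and for the NF-Y word CCAAT. An E2F word was in 13 of 32 promoters (40.6%), against 5.6% of all 35116 promoters and 9.71% of the 9656 promoters matched to tested genes. It was in 9 of the 17 promoters of genes called lower and in 4 of the 15 others, namely FANCA, FANCL, XRCC3 and RAD51AP1. TTTGAA was in 4 of 32 (12.5%), against 15.2% of all promoters and 10.1% of those of tested genes. CCAAT was in 16 of 32 (50%), against 34.6% of all promoters and 37.6% of those of tested genes. The NF-Y word was in 6 of the 17 promoters of genes called lower and in 10 of the 15 others. These are matches of letters, and the start used in NKM-1 may be another one.

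The 9 genes called lower that hold an E2F word are shown 5′ to 3′ on the gene's own strand with 6 bases on each side. The capitals mark the word or its reverse complement, and BLM and TOPBP1 hold a further word not shown, which in TOPBP1 overlaps the one printed.
FANCC (chr9:95317868-95317887): gcttccGCGCGAAAccggga
FANCD2 (chr3:10026428-10026447): gggcctGGCGGGAAagtcga
BRIP1 (chr17:61863514-61863533): gcgggaGGCGGGAAttcgtc
XRCC2 (chr7:152676108-152676127): gttggtGGCGGGAAagttga
RAD54L (chr1:46247633-46247652): gcactaTTCCCGCCtcttcc
EXO1 (chr1:241848202-241848221): tcagccTTTCGCGCgctgtg
BLM (chr15:90717265-90717284): tgagggGGCGGGAAcagatg
CLSPN (chr1:35769971-35769990): tggctgGGCGGGAAagcaag
TOPBP1 (chr3:133661936-133661955): gcggttGGCGCGAAagtcgg

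The promoters of the genes with the largest falls and of the gene that rose are shown whole in the same way, UBE2T from the minus strand and CHEK1 and ATM from the plus strand, with matches to any of the words in capitals. UBE2T and ATM both hold TTTGAA and CCAAT, and CHEK1 holds CCAAT alone. In CHEK1 and ATM the CCAAT word is on the reverse strand, and no E2F word is in the 3 windows.
UBE2T (chr1:202341887-202342186): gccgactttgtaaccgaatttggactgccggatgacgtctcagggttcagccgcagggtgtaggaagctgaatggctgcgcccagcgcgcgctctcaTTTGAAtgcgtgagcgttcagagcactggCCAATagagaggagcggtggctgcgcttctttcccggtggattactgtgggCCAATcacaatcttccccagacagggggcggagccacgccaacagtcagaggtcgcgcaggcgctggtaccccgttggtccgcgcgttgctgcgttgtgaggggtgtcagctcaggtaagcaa
CHEK1 (chr11:125625979-125626278): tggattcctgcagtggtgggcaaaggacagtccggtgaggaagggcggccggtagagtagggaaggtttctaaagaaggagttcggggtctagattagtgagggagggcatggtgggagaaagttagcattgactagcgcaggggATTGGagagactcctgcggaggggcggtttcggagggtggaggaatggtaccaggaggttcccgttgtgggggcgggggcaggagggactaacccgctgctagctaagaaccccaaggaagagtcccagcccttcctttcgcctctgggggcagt
ATM (chr11:108222817-108223116): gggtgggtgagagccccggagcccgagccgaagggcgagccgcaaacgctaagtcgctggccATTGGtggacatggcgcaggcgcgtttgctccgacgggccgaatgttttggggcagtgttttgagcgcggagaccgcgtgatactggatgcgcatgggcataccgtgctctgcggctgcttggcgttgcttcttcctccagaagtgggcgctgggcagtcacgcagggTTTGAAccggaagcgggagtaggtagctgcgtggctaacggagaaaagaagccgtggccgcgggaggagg

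Most FA core subunits did not pass the test, whereas the E2 enzyme that works with them had the largest fall of the 35 genes. In this group 3 of 9 genes fell (33.3%, near the 24.3% of all genes called lower) and 0 rose. Its median log2 difference was -0.17, which turned to 0.01 after quantile normalization and to 0.15 with mitochondrial and small RNA genes left aside. UBE2T (chromosome 1, 202331657 to 202341980), which passes ubiquitin to FANCD2 and FANCI, had a signal of 7.69, 4.73, 6.95 and 7.40 in the SF153 libraries, against 24.24, 19.31, 16.01 and 17.81 in the DMSO libraries. Here and below, library values run in the order 1.1, 1.2, 2.1, 2.2, and positions are from GENCODE release 29 on GRCh38. The groups were well apart, and the highest SF153 value was below a level of 8. This is a log2 difference of -1.41 ± 0.17 SE (limma adjusted p = 0.000204), a mean in SF153 of 34.6% of that in DMSO.

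FANCB (chromosome X, 14835961 to 14873069), a structural subunit of the catalytic module, had 7.92, 6.82, 9.36 and 8.62 in the SF153 libraries, against 14.71, 19.73, 14.31 and 18.54 in the DMSO libraries. The highest SF153 library, 2.1, stayed below the lowest DMSO library, 2.1. Its log2 difference was -0.95 ± 0.14 SE (limma adjusted p = 0.000607). FANCC, of the substrate recognition module, fell with a log2 difference of -0.41 ± 0.12 SE (limma adjusted p = 0.024). This call was lost under each of the 3 other scalings (-0.33, -0.20 and -0.08), after averaging by treatment and batch, and without SF153 1.1 or 1.2 or DMSO 1.1, 2.1 or 2.2 (-0.41 to -0.35).

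The other core subunits did not pass the test. FANCL, the RING subunit that gives the complex its ligase activity, had 96.7 ± 9.72 in SF153 and 107 ± 4.6 in DMSO (mean ± SD of signal, n = 4 each), and FANCA, another core subunit, had 98.3 ± 11.4 in SF153 and 110.0 ± 7.52 in DMSO. Without SF153 2.1, FANCA was called lower (-0.24). FANCG, the subunit with the smallest difference, had 28.15, 26.56, 28.27 and 23.82 in the SF153 libraries, against 24.10, 26.31, 23.42 and 38.53 in the DMSO libraries. Its groups overlapped, DMSO 2.2 was the highest of all 8 libraries, and the interval of the log2 difference was -0.38 to 0.29. For FANCM, the translocase that anchors the complex on DNA, the interval was -0.28 to 0.16, for FANCE -0.48 to 0.14 and for FANCA -0.37 to 0.04. FANCF was the lowest of the 35 genes at 3.18 ± 0.66 in SF153 and 4.34 ± 0.86 in DMSO, with an interval of -0.76 to 0.06.

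FANCD2 and FANCI of the ID2 complex, the clamp that the core complex ubiquitinates, both fell under the authors' scaling. FANCI (chromosome 15, 89243949 to 89317261) had 51.85, 52.44, 82.79 and 78.93 in the SF153 libraries, against 101.32, 97.57, 84.14 and 90.78 in the DMSO libraries. The batch 1 libraries treated with SF153 were far below DMSO and the batch 2 libraries treated with SF153 lay just under it. The pooled log2 difference was -0.51 ± 0.16 SE (limma adjusted p = 0.0301), with -0.92 in batch 1 and -0.11 in batch 2. The treatment effect differed between the batches by 0.81, batch 2 minus batch 1 (limma interaction, adjusted p = 0.0138), the only such call among the 35 genes, where 1.15% of all genes were called. FANCD2 had 30.69, 29.75, 39.09 and 39.35 in the SF153 libraries, against 37.90, 45.53, 44.54 and 49.99 in the DMSO libraries, so that the groups overlapped. Its log2 difference was -0.35 ± 0.12 SE (limma adjusted p = 0.0456). FANCD2 has an annotated pseudogene copy, FANCD2P2, with which it may share reads. Both calls were lost under each of the 3 other scalings, with -0.43, -0.35 and -0.18 for FANCI and -0.27, -0.17 and -0.02 for FANCD2. They were also lost after averaging by treatment and batch, without SF153 1.1 or 1.2, and without 3 of the 4 DMSO libraries, which were 1.1, 1.2 and 2.2 for FANCI and 1.2, 2.1 and 2.2 for FANCD2. FANCI then ranged from -0.53 to -0.41 and FANCD2 from -0.35 to -0.29.

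**Figure D2:**
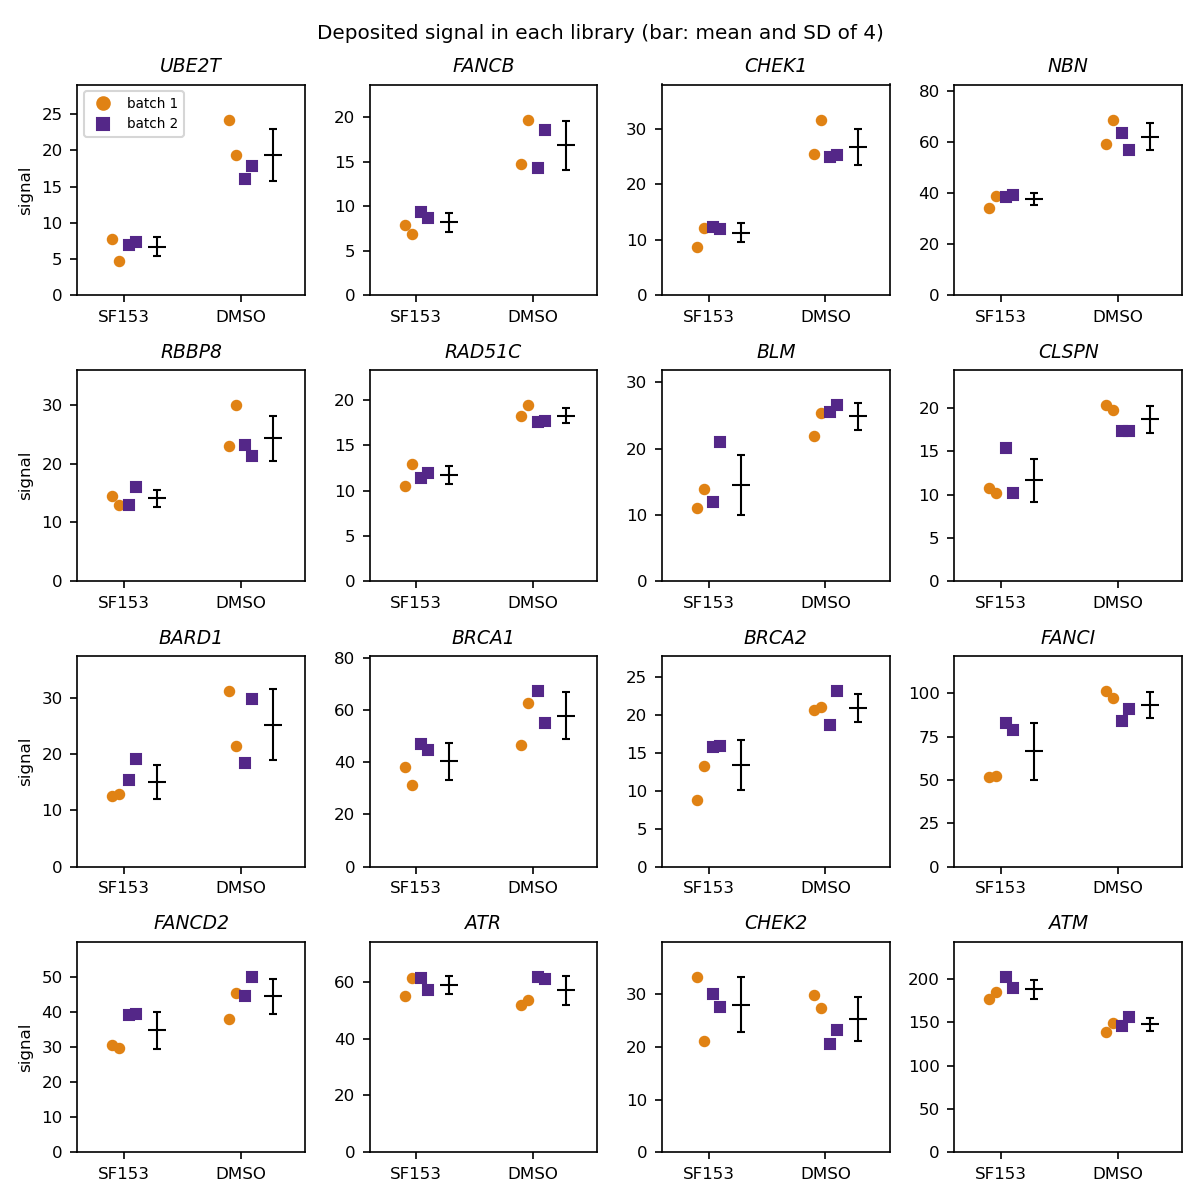
Deposited signal of 16 genes in each library, SF153 on the left and DMSO on the right of each panel, with circles for batch 1, squares for batch 2 and a bar for the mean and SD of 4 libraries. UBE2T, CHEK1, NBN and RAD51C are among the panels without overlap between treatments, and FANCI separates by batch within SF153. ATM is the panel in which every SF153 library lies above every DMSO library.

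Among the BRCA proteins and their direct partners, 4 of 5 genes fell and PALB2 did not pass. BARD1 (chromosome 2, 214725646 to 214809711), which forms a ubiquitin ligase with BRCA1, had 12.57, 12.92, 15.49 and 19.14 in the SF153 libraries, against 31.23, 21.52, 18.40 and 29.91 in the DMSO libraries. SF153 2.2 lay above DMSO 2.1, and the groups overlapped there. BARD1 had a log2 difference of -0.70 ± 0.19 SE (limma adjusted p = 0.0165). BRCA2 (chromosome 13, 32315474 to 32400266), which acts on the resected single strand, had 8.82, 13.28, 15.77 and 15.83 in the SF153 libraries, against 20.64, 20.97, 18.70 and 23.10 in the DMSO libraries. All SF153 values were below all DMSO values, and SF153 1.1 was the lowest. Its log2 difference was -0.63 ± 0.17 SE (limma adjusted p = 0.0162).

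BRCA1 (chromosome 17, 43044295 to 43170245) had 38.01, 31.41, 47.01 and 44.77 in the SF153 libraries, against 46.57, 62.56, 67.16 and 54.90 in the DMSO libraries, and SF153 2.1 just exceeded DMSO 1.1. The log2 difference was -0.51 ± 0.15 SE (limma adjusted p = 0.0221), and without SF153 1.1, DMSO 1.2 or DMSO 2.1 the call was lost (-0.49 to -0.44). BRIP1, the helicase that binds BRCA1, had 29.9 ± 6.34 in SF153 and 39.4 ± 3.69 in DMSO and stood at the edge of the threshold (-0.41 ± 0.14 SE, limma adjusted p = 0.0491). It had -0.75 in batch 1 and -0.06 in batch 2, and it was no longer called without SF153 1.1, 1.2 or 2.1 or DMSO 1.1, 1.2 or 2.2 (-0.46 to -0.31). None of the 4 falls was called after quantile normalization (-0.32 for BRCA1, -0.50 for BARD1, -0.43 for BRCA2 and -0.22 for BRIP1). The same held without mitochondrial and small RNA genes (-0.18, -0.37, -0.31 and -0.07). BRIP1 was not called after median-of-ratios scaling either (-0.33), and averaging by treatment and batch ended the calls of BRCA1, BRCA2 and BRIP1. PALB2, which bridges BRCA1 and BRCA2, had 8.95, 8.70, 12.03 and 8.12 in the SF153 libraries, against 9.52, 8.74, 12.76 and 9.51 in the DMSO libraries. Its groups overlapped throughout, and the interval of its log2 difference was -0.44 to 0.25.

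Of the strand-exchange cofactors, 3 of 6 fell and 0 rose. RAD51C (chromosome 17, 58692573 to 58735611), a subunit shared by the complexes of XRCC2 and XRCC3, had 10.54, 12.93, 11.43 and 11.95 in the SF153 libraries, against 18.27, 19.42, 17.62 and 17.74 in the DMSO libraries. Libraries of each treatment were tightly grouped and well apart from the other treatment, and the difference was similar in batch 1 (-0.65) and batch 2 (-0.56). Over both batches it was -0.60 ± 0.09 SE (limma adjusted p = 0.000847). XRCC2, which joins RAD51C in a complex with further subunits, had 5.30, 5.95, 8.64 and 9.34 in the SF153 libraries, against 11.09, 10.79, 10.98 and 10.96 in the DMSO libraries. Its DMSO values were nearly equal and its batch 1 values in SF153 were the lowest. The log2 difference was -0.56 ± 0.17 SE (limma adjusted p = 0.0251), a call that was lost after quantile normalization (-0.43), without mitochondrial and small RNA genes (-0.25), after averaging, and without any 1 library other than SF153 2.1 and 2.2 (-0.56 to -0.43).

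RAD54L, a DNA translocase of the strand exchange step, had 28.2 ± 5.43 in SF153 and 40.7 ± 5.88 in DMSO and fell (-0.52 ± 0.14 SE, limma adjusted p = 0.0172), and this call too was lost after quantile normalization (-0.33), without mitochondrial and small RNA genes (-0.19) and after averaging. XRCC3, which pairs with RAD51C, had 36.68, 25.74, 31.50 and 25.00 in the SF153 libraries, against 22.11, 29.43, 37.97 and 38.27 in the DMSO libraries. Its groups overlapped fully, and its difference was 0.26 in batch 1 but -0.43 in batch 2. RAD54B, a related translocase, and RAD51AP1, a stimulator of strand exchange, had large differences and a wide spread. RAD54B ran from 4.55 to 16.04 in SF153 and from 11.19 to 19.16 in DMSO (-0.69 ± 0.31 SE, limma adjusted p = 0.106). RAD51AP1 ran from 3.11 to 7.42 in SF153 and from 6.33 to 11.79 in DMSO (-0.56 ± 0.25 SE, limma adjusted p = 0.115), and it has an annotated processed pseudogene that may share its reads. RAD54B was called lower in batch 1 alone (-1.18) and without SF153 2.2 (-0.97).

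Genes that sense and resect broken ends fell in 4 of 6 cases. NBN (chromosome 8, 89933336 to 90003228), the subunit that brings the MRE11 complex to ATM, had 34.07, 38.64, 38.35 and 39.07 in the SF153 libraries, against 59.06, 68.63, 63.30 and 56.67 in the DMSO libraries. The highest SF153 value was far below the lowest DMSO value. Its log2 difference was -0.71 ± 0.08 SE (limma adjusted p = 0.000197). The other subunits of that complex did not pass. MRE11, the nuclease, had 36.3 ± 8.39 in SF153 and 48.2 ± 5.32 in DMSO (-0.43 ± 0.17 SE, limma adjusted p = 0.0716, and called without SF153 2.2 at -0.52), and it has an annotated processed pseudogene. RAD50, the ATPase, had 16.08, 23.19, 26.56 and 25.32 in the SF153 libraries, against 25.24, 25.20, 27.47 and 18.53 in the DMSO libraries. SF153 1.1 was the lowest RAD50 value and DMSO 2.2 the second lowest, the groups overlapped, and the interval of the log2 difference was -0.47 to 0.29.

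RBBP8 (chromosome 18, 22798261 to 23026488), also called CtIP, starts resection with MRE11. It had 14.39, 13.02, 12.88 and 16.05 in the SF153 libraries, against 23.02, 29.92, 23.19 and 21.24 in the DMSO libraries. The groups did not overlap, and the log2 difference was -0.74 ± 0.12 SE (limma adjusted p = 0.00123). An annotated processed pseudogene of RBBP8 may share its reads. EXO1, the exonuclease of long-range resection, had 7.58 ± 1.66 in SF153 and 12.3 ± 1.52 in DMSO and fell (-0.65 ± 0.15 SE, limma adjusted p = 0.0089). BLM (chromosome 15, 90717327 to 90816165), the helicase mutated in Bloom syndrome, had 10.99, 13.91, 11.94 and 21.06 in the SF153 libraries, against 21.92, 25.39, 25.56 and 26.53 in the DMSO libraries. SF153 2.2 stood above the other SF153 values and close to DMSO 1.1. Its log2 difference was -0.78 ± 0.18 SE (limma adjusted p = 0.00704). EXO1 and BLM were not called without mitochondrial and small RNA genes (-0.34 and -0.45), and both kept their calls under the other 2 scalings. EXO1 was also not called with both SF153 libraries of batch 2 left out (-0.60, limma adjusted p = 0.0609).

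The checkpoint genes divided. CHEK1, CLSPN and TOPBP1, which work with ATR, fell, the kinases ATR and CHEK2 did not pass, and ATM rose. CHEK1 (chromosome 11, 125625136 to 125676255), the effector kinase of ATR, had 8.65, 12.04, 12.30 and 11.85 in the SF153 libraries, against 25.50, 31.64, 24.83 and 25.20 in the DMSO libraries. Every SF153 value was under the level of 13 and every DMSO value above 24. The log2 difference was -1.19 ± 0.13 SE (limma adjusted p = 0.000131). CLSPN (chromosome 1, 35720218 to 35769967), or claspin, the adaptor through which ATR reaches CHEK1, had 10.75, 10.23, 15.36 and 10.20 in the SF153 libraries, against 20.33, 19.76, 17.40 and 17.40 in the DMSO libraries. SF153 2.1 was the nearest to DMSO, without overlap. Its log2 difference was -0.66 ± 0.14 SE (limma adjusted p = 0.00456), and it was not called without mitochondrial and small RNA genes (-0.34). TOPBP1, which activates ATR, had 52.7 ± 5.51 in SF153 and 66.7 ± 7.28 in DMSO (-0.34 ± 0.10 SE, limma adjusted p = 0.0296). Its call was lost under all 3 other scalings (-0.26, -0.15 and 0.00113), after averaging, and without SF153 1.1 or 2.1 or DMSO 1.1 or 2.2 (-0.35 to -0.26).

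ATR (chromosome 3, 142449235 to 142578826) had 55.06, 61.33, 61.44 and 56.96 in the SF153 libraries, against 51.66, 53.47, 61.68 and 61.09 in the DMSO libraries. Its groups overlapped, and the interval of the log2 difference was -0.14 to 0.23. Its partner ATRIP had 8.65, 10.25, 8.23 and 8.05 in the SF153 libraries, against 8.12, 9.03, 16.51 and 15.01 in the DMSO libraries, with DMSO higher in batch 2 than in batch 1. For ATRIP, batch 1 gave 0.12 and batch 2 gave -0.87 (limma interaction, adjusted p = 0.108). CHEK2, the effector of ATM, had 33.33, 21.08, 30.12 and 27.66 in the SF153 libraries, against 29.83, 27.43, 20.56 and 23.30 in the DMSO libraries. The groups overlapped, and the interval of its log2 difference was -0.21 to 0.49. CHEK2 has several annotated pseudogene copies, among them CHEK2P2, and its values are uncertain.

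ATM (chromosome 11, 108222484 to 108369102), the kinase that answers double-strand breaks, was the most abundant of the 35 genes in both treatments. It had 176.49, 184.74, 202.36 and 189.20 in the SF153 libraries, against 139.01, 149.10, 145.26 and 156.43 in the DMSO libraries. Every SF153 value lay above every DMSO value. The log2 difference was 0.35 ± 0.07 SE (limma adjusted p = 0.00323), with 0.32 in batch 1 and 0.37 in batch 2. It was 0.43, 0.74 and 0.69 under the 3 other scalings, all called, and 0.35 without a call after averaging the libraries of each treatment and batch (limma adjusted p = 0.0674). Without mitochondrial and small RNA genes ATR (0.38) and CHEK2 (0.47) were called higher as well, in a setting where 35% of all genes were called higher.

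The differences were larger in batch 1 than in batch 2. Over the 35 genes the median was -0.65 in batch 1 and -0.26 in batch 2 (log2), whereas all genes had -0.04 and -0.05. The difference was more negative in batch 1 for 28 of the 35 genes, and FANCC, FANCF, FANCG, PALB2, XRCC3, ATR and ATRIP were the exceptions. Tested within a batch, with 2 libraries per treatment, 16 genes were lower in batch 1 and 6 in batch 2, and 1 was higher in each. Of all genes 14.6% and 15.8% were lower there, and 5.54% and 5.53% were higher. With batch as a replicate block 19 genes were lower and 1 higher, beside 24.9% and 13.3% of all genes. After averaging by treatment and batch 10 were lower and 0 higher, beside 16.5% and 6.1%. The share in batch 2, 17.1%, is near its background. The larger mitochondrial share and lower column sums described above belong to SF153 2.1 and 2.2, and the larger RN7SK share to SF153 1.1 and 1.2. Their part in this difference was not tested.

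**Figure D3:**
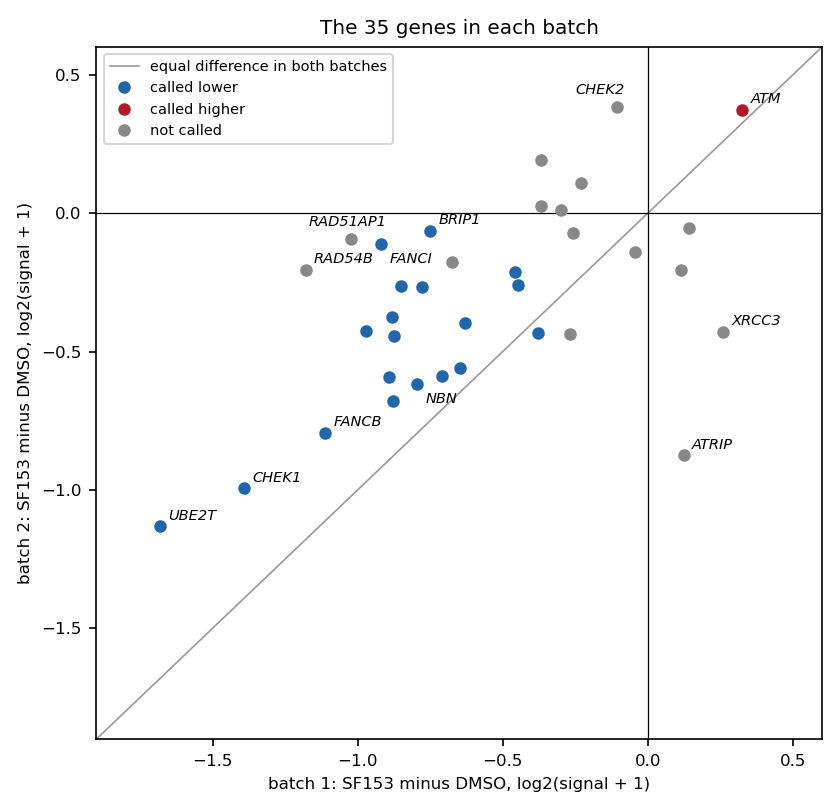
Log2 difference between SF153 and DMSO in batch 1 (horizontal) and batch 2 (vertical) for the 35 genes, 1 point per gene, coloured by the call over both batches. Most points lie above the diagonal, with UBE2T at -1.68 and -1.13 and FANCI at -0.92 and -0.11, while ATRIP (0.12 and -0.87) lies far below it.

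Transcript length and level varied widely over the 35 genes. Their median transcript length was 4580 bases, against 2599 for the tested genes with a length, by the longest basic transcript of GENCODE release 29. Across the 35 genes the Spearman correlation of the log2 difference was 0.16 with transcript length and 0.28 with the mean DMSO signal, given as descriptions over genes measured in the same libraries. After removal of the trend on length and level fitted over all genes, 13 of the 35 genes were lower and 1 was higher, with a median of -0.39, beside 19.9% and 17.8% of all genes.

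Further genes of the same pathways were taken from a separate list of 52 recombination and FA genes. Of these 20 fell (38.5%, beside 24.3% of all genes) and 5 rose (beside 13% of all genes). Their median was -0.23 on the log2 scale, and it turned to 0.05 with mitochondrial and small RNA genes left aside, where 14 were lower and 16 higher. In that setting 13.8% of all genes were lower and 35% higher. The largest falls were in RPA3 (-2.08), SEM1 (-1.61), RPA1 (-1.50) and USP1 (-1.41). RPA1 and RPA3 are subunits of the protein that coats single-stranded DNA, SEM1 is a small partner of BRCA2, and USP1 removes ubiquitin from FANCD2. These 4 were called lower under all 4 scalings. RPA2, the remaining subunit of that protein, also fell (-1.19). The genes that rose were FAAP100 (0.59), a core complex subunit, the nuclease genes FAN1 (0.39) and GEN1 (0.38), SPIDR (0.36), a scaffold that binds BLM, and the translesion polymerase REV1 (0.29). After averaging by treatment and batch 18 of the 52 were lower and 1 higher, beside 16.5% and 6.1% of all genes. FAN1, GEN1, SPIDR and REV1 were then no longer called (limma adjusted p = 0.0547, 0.138, 0.139 and 0.171).

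Of 15 further checkpoint and break response genes, 8 fell (53.3%, beside 24.3% of all genes) and 2 rose (beside 13%), with a median of -0.34. Without mitochondrial and small RNA genes the median was -0.007, with 3 lower and 2 higher, beside 13.8% and 35% of all genes. H2AX, the histone variant phosphorylated at breaks, fell by 1.10, and CDC25A, the phosphatase that CHEK1 targets, fell by 0.83 on the log2 scale. TIPIN and WEE1 each fell by 0.73, TIPIN without a call under the 3 other scalings or after averaging. HUS1, of the checkpoint clamp, and TP53BP1, which opposes resection, rose by 0.50 and 0.33, and neither was called after averaging by treatment and batch (limma adjusted p = 0.0586 and 0.0724). Non-homologous end joining, the route that joins ends without a template, had 3 of 10 genes lower and 2 higher, near the 24.3% and 13% of all genes, with a median of -0.05 that was above 0 under each of the 3 other scalings. There the Ku subunits XRCC6 (-2.05) and XRCC5 (-0.88) fell, PRKDC fell with the authors' scaling (-0.50) but was not called after quantile normalization (-0.05) or with mitochondrial and small RNA genes taken out (-0.16), and LIG4 rose (0.37), without a call after averaging (limma adjusted p = 0.101).

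Genes of the replication fork, which copies DNA in S phase, were lower almost throughout. Of 30 fork genes 28 fell (93.3%, beside 24.3% of all genes) and 0 rose, with a median of -0.88. When mitochondrial and small RNA genes were taken out, 18 were called lower (median -0.56), beside 13.8% of all genes. No test of the difference between lists was made.

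**Figure D4:**
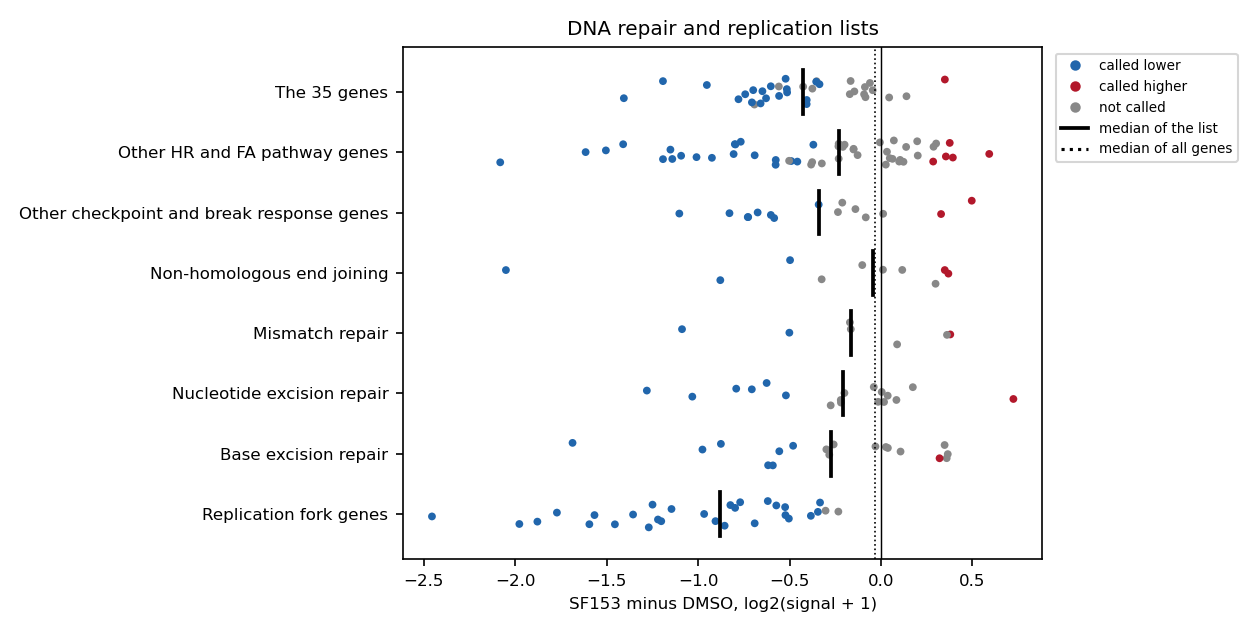
Log2 difference of each tested gene in 8 lists, 1 point per gene coloured by call, with a bar at each list's median and a dotted line at the median of all genes. The bar is at -0.43 for the 35 genes, -0.05 for end joining and -0.88 for the replication fork.

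**Figure D5:**
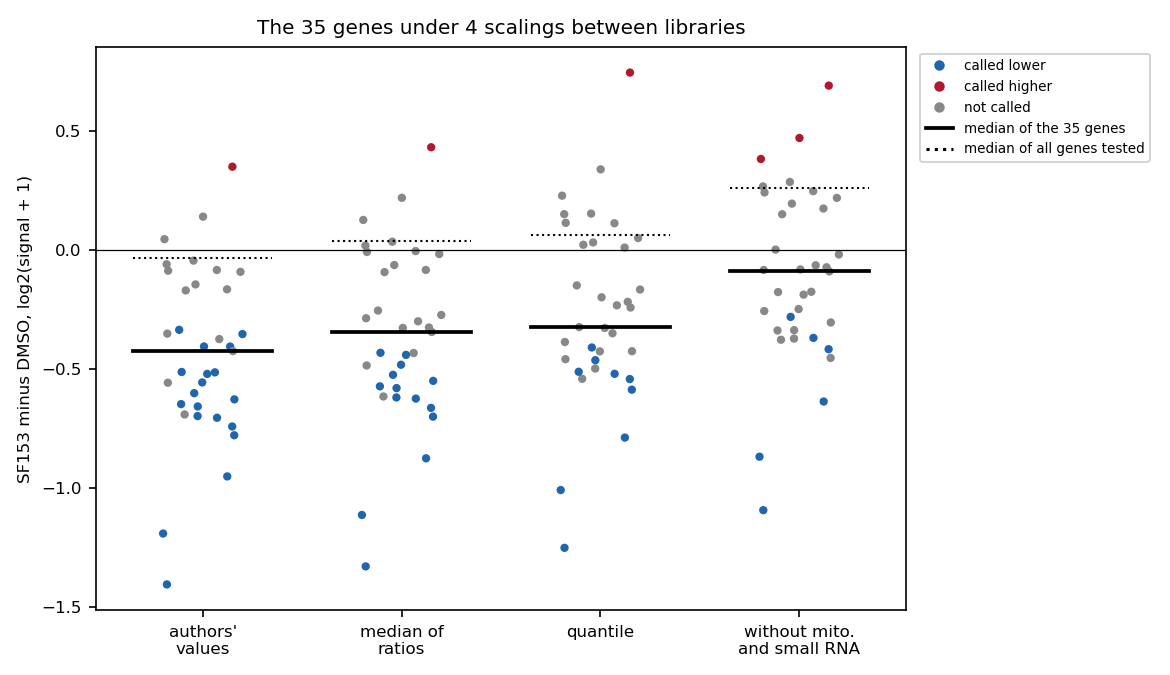
Log2 difference of the 35 genes (points) under 4 ways of scaling the libraries, with a bar at their median and a dotted line at the median of all genes tested. Both medians move up together, to -0.09 and 0.26 when mitochondrial and small RNA genes are taken out, and the number of genes called lower drops to 6 there, against 19 with the authors' values.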

How the data were processed

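Gene-level signal in 8 libraries of NKM-1 total RNA was analysed, 4 per treatment. The deposited values were taken as a signal of TPM type, and the authors' file names call them both CPM and TPM. Columns sum to different totals, so they are not plain TPM, and the sources used here do not state how libraries were scaled. The submitters' processing notes name CASAVA 1.8.2, STAR, Salmon, edgeR and GRCh38 without roles. Read depth is unknown, so no counting interval is given. Columns were matched to samples by library number, letter, index pair and sample number, since 4 were spelled differently from the labels. The plan had assumed CPM or TPM, and the signal was tested as planned for those.

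Differences were tested with limma 3.58.1 (R 4.3.3) on the log2 of the signal plus 1, with a variance trend on intensity and without a batch term, for 15542 genes with a mean of at least 1, with Benjamini-Hochberg adjustment over all of them and a threshold of 0.05. A difference on this scale understates the change of low genes. The interaction of treatment and batch was tested in the same way. Positions and lengths are from GENCODE release 29 on GRCh38, and promoters from RefSeq. All 35 genes may be named. Values per library were given for the 2 called genes with the largest differences and the gene with the smallest in each role group, for every gene called higher, and, chosen after their values were seen, for NBN, BRCA1, ATRIP and CHEK2. From other lists up to 4 called genes were named by size, and any further ones were chosen after their values were seen. Some genes of these lists are not reported here. The gene list, the role groups and the other lists were chosen with earlier results of these data known. Of the promoters of the 6 called genes with the largest differences, those of UBE2T and CHEK1 were printed whole, and that of ATM was added.

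Batch numbers pair the samples because the labels say that they mark a shared batch. Across genes, the mean correlation between SF153 and DMSO libraries of 1 batch, after subtracting each treatment's mean, was 0.026. Alternatives covered pseudocount, filter, scaling, variance model, batch block, averaging, single batches, the trend on length and level, and each library left out; 2 more were chosen after seeing the data.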

Additional observations from a re-analysis of the deposited data

Results flagged for a closer look

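In 5 of 70 groups of 4 libraries, 1 library stood apart from the other 3, where chance gives about 1 in 20. In SF153 1.1, RAD51AP1 had a signal of 3.11 (others 6.71 to 7.42), NBN 34.07 (others 38.35 to 39.07) and CHEK1 8.65 (others 11.85 to 12.3). CLSPN had 15.36 in SF153 2.1 (others 10.2 to 10.75), and CHEK1 had 31.64 in DMSO 1.2 (others 24.83 to 25.5). The calls of NBN, CHEK1 and CLSPN were kept without each of these libraries in turn.

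The effect of SF153 on FANCI differed between batches, by 0.81 on the log2 scale (limma interaction, adjusted p = 0.0138). At an unadjusted p below 0.05 (limma interaction), 6 of the 35 genes and 1568 of the 15542 genes tested differed.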

How the results depend on the processing

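With the authors' values 19 of the 35 genes were lower and 1 was higher, with a median log2 difference of -0.43. Of all genes 24.3% were lower and 13% higher. The number lower was 9 after quantile normalization, 6 without mitochondrial and small RNA genes, 10 after averaging by treatment and batch, and 6 in batch 2 alone. The shares of all genes lower in these settings were 18.2%, 13.8%, 16.5% and 15.8%. A count of 6 of the 35 genes is 17.1%, near the share of all genes in both settings that gave it. The number higher was 0 after averaging, beside 6.1% of all genes. It was 3 when mitochondrial and small RNA genes were taken out, beside 35% of all genes, and there the median was -0.0906 and TOPBP1 turned to 0.00113. Rescaling to the same sum, chosen after seeing the data, gave 9 lower, and leaving out both SF153 libraries of batch 2 gave 21. Of all genes 17.7% and 18.5% were lower there. The cause of these changes was not tested, except that averaging leaves 2 values per treatment. Leaving out 1 library at a time gave 12 to 21 lower, 1 higher and a median of -0.52 to -0.38. Of all genes 21.2% to 23.3% were lower in those fits and 10.0% to 11.5% higher. The lowest count, 12, came without SF153 1.1, and 12 genes were lower in each of these 8 fits. With batch as a replicate block 19 were lower and 1 higher (beside 24.9% and 13.3% of all genes), the median was -0.43, and no call changed. Pseudocounts of 0.1 and 0.5 gave 18 and 19 lower, no filter 17, a minimum of 5 gave 19, median-of-ratios scaling 14, no intensity trend 15 and a robust prior 19. In that order, 24.2%, 24.3%, 20.8%, 32.7%, 20.9%, 23.6% and 24.2% of all genes were lower. Batch as a random effect within treatment gave 17, batch 1 alone 16 and trend removal 13, beside 22.9%, 14.6% and 19.9% of all genes. Over all genes, the share of calls that were higher was 34.8% with the authors' values, 44.9% after median-of-ratios scaling, 53.3% after quantile normalization and 71.8% with mitochondrial and small RNA genes left aside. The libraries of 1 treatment and batch may share a culture, and depth is unknown.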

Other observations

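Repair routes other than recombination held a few falls of similar or larger size. In base excision repair 7 of 18 genes fell (38.9%, beside 24.3% of all genes) and 1 rose (beside 13%) with the authors' scaling. The median of -0.27 (log2) turned to 0.05 without mitochondrial and small RNA genes. UNG, the glycosylase that removes uracil from DNA, had 5.72 ± 0.78 in SF153 and 20.5 ± 1.35 in DMSO (log2 difference -1.69 ± 0.12 SE, limma adjusted p = 1.93e-05). The endonuclease APEX1 fell by 0.98, PARP1 by 0.88 and the glycosylase MPG by 0.62 on the log2 scale. In nucleotide excision repair 6 of 18 genes fell (33.3%) and 1 rose, beside 24.3% and 13% of all genes. After averaging by treatment and batch 3 were lower and 1 higher, beside 16.5% and 6.1%. GTF2H5 (-1.28) and CETN2 (-1.03), both at low levels, had the largest falls, neither called after averaging (limma adjusted p = 0.09 and 0.0768) and CETN2 also without a call when mitochondrial and small RNA genes were taken out (-0.78), and RAD23B fell by 0.79 on the log2 scale, whereas UVSSA, of the transcription-coupled route, rose (0.72).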
